A study of Rattus norvegicus with 9 samples.

Results

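The untreated WKY saphenous artery was described from 3 RAE230A oligonucleotide arrays, out of 9 in the series. The Wistar-Kyoto (WKY) rat is the inbred strain with normal blood pressure that serves as the control for the spontaneously hypertensive rat (SHR). The 3 arrays were chosen by their labels alone and carry RNA from male WKY rats 16 weeks old that had received no treatment. The other 6 arrays, 3 of WKY rats given adrenocorticotropic hormone (ACTH) and 3 of SHR, were not used, so nothing here is a comparison between groups. Each array held RNA pooled from 2 or 3 rats, so the 3 arrays are called WKY 1, WKY 2 and WKY 3 and differences between single animals within a pool cannot be seen. The vessel was a first-order side branch of the saphenous artery in the hind limb, freed of surrounding material before the RNA was extracted.

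The wall of a small muscular artery has 3 coats. The tunica media is made of smooth muscle cells, which contract when calcium and calmodulin activate myosin light chain kinase and relax when nitric oxide from the endothelium raises cyclic GMP. The intima is a single layer of endothelial cells on a basement membrane, and the adventitia holds fibroblasts, fibrillar collagen, sympathetic nerve endings, resident immune cells and often some fat. RNA of the whole vessel mixes these cells, and in such bulk samples fewer cells of a type and less RNA per cell cannot be told apart.

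Signal is the MAS5 value of a probeset, the set of short probes designed for 1 transcript, on a linear scale without unit. After removal of 57 control probesets, 15866 probesets remained. Of these, 12783 carried 1 gene symbol and represented 10411 genes. Where a gene had several, its brightest probeset over the 3 arrays was used, and signals are given in the order WKY 1, WKY 2, WKY 3. Signals of different probesets depend on their probes, so rank and percentile describe signal and not transcript number. Among genes with several probesets, 1501 had a brightest probeset with a mean above the mean of the 3 floors set below. In these genes the brightest exceeded the dimmest by a median of 7.15-fold, so a low signal does not show that a transcript is absent. The genes named follow a rule given with the processing, and other list members are named as examples chosen after their values were seen. No detection calls were used, and a floor was therefore set on each array at the 90th percentile of 99 probesets for 80 genes of liver, pancreas, pituitary, retina, testis, kidney tubule, lung and brain. The floor was a signal of 20.6 on WKY 1, 26.9 on WKY 2 and 41.7 on WKY 3. By this measure 8734 probesets, 55% of all, were above the floor on all 3 arrays, and so were 6652 genes, 63.9% of those represented. About 10% of the floor list lies above the floor on each array by construction, and 6 of its 80 genes did so on all 3, the brightest being Odf2 at 142, 158 and 221.

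All 3 arrays had been scaled to the same mean target of 150, so their likeness in scale was set by the processing. The median signal was 52.3, 56.4 and 57.2. The floor, which this target does not fix, differed more, at 20.6, 26.9 and 41.7. The 3'/5' signal ratio of GAPDH, a measure of RNA length after amplification, was 5.35, 5.99 and 4.91. That of actin was 13.1, 13.6 and 9.77, and both ratios were lowest on WKY 3. The bacteriophage Cre control spiked into the hybridisation varied more, at 2920, 940 and 1589. Each array was scanned on a day of its own, so array and scan day cannot be told apart. Errors are standard deviations of log2 signal over the 3 arrays, and no test was made because there is 1 group.

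The brightest signals of the artery came from genes of smooth muscle, matrix and translation. Of the 25 genes with the highest signal, Flna, Myh11, Tagln, Tpm2, Myl9, Csrp1 and Synpo2 belong to the contractile apparatus and its anchoring, and Mgp, Col1a2, Col3a1 and Lamb2 to the extracellular matrix. Sparcl1 and Igfbp7, both secreted matricellular proteins, stood among them at 6152, 5042 and 6363 (Sparcl1) and 5689.6, 4228 and 5405 (Igfbp7). Eef1a1, the elongation factor of translation, and 6 ribosomal protein genes (Rpl7a, Rpl3, Rps3a, Rps6, Rps23 and Rpl19) made up the translation machinery in this set. COX1 and COX2, subunits of cytochrome c oxidase encoded in the mitochondrial genome, gave 7773, 4165 and 5265 (COX1) and 6109, 4034 and 5115 (COX2), in both cases highest on WKY 1 and lowest on WKY 2. The remaining genes were the cytoskeletal and membrane genes Vim, Crip1 and Cd81. Among the brightest 100 probesets, 10 belonged to the contractile list, 6 to the interstitial matrix list and 12 to the ribosome and housekeeping list. No probeset of the endothelial, fat cell, nerve, Schwann cell, macrophage or lymphocyte lists was among them, while 33 of the 100 had no single symbol.

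**Figure D1:**
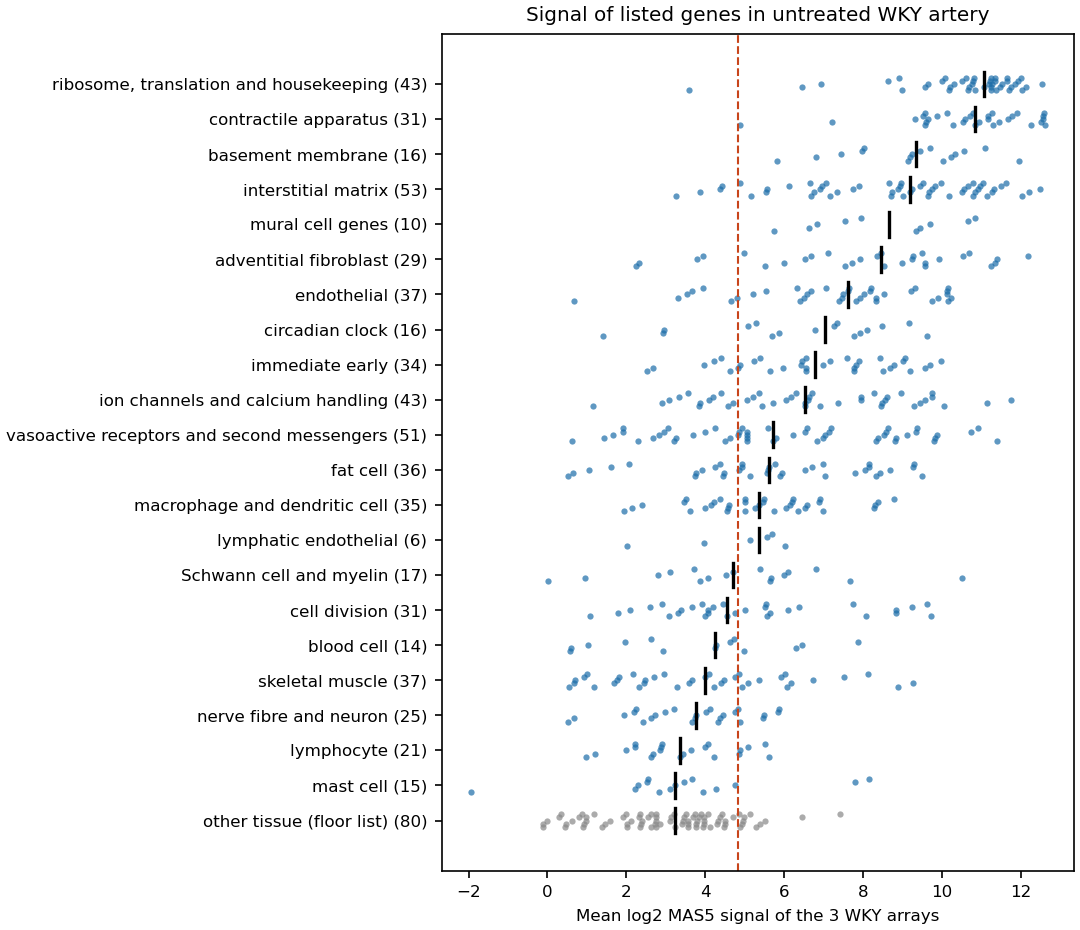
Signal of the listed genes in untreated WKY artery. Each point is 1 gene, placed by its mean log2 MAS5 signal over the 3 arrays, black bars are list medians, the number of genes represented is in parentheses and the dashed line is the mean floor of 4.83. Ribosomal and contractile genes lie far to the right, with median percentiles of 99.0 and 98.6, whereas lymphocyte, mast cell and nerve genes lie mostly left of the line with the grey points of the floor list.

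The markers of the main wall cells were all above the floor on every array. Myh11, the smooth muscle myosin heavy chain, gave 6518, 5866 and 6269 (log2 mean 12.60 ± 0.08, SD, n = 3 arrays) and ranked 2 among all probesets. Acta2, smooth muscle alpha-actin, gave 1521, 1106 and 1985 (10.55 ± 0.42) and varied more, with the lowest value on WKY 2. Des, the intermediate filament desmin, gave 1786, 1687 and 2109.7 (10.85 ± 0.17). All 3 smooth muscle markers were in the brightest 10% of probesets, where 12% of all genes were found. Col1a1, the alpha-1 chain of type I collagen, gave 2438, 3207 and 1941 (11.27 ± 0.36) by its brighter probeset and 719, 977 and 1046 by the other. These probesets disagreed on the order of the arrays, the first being highest on WKY 2 and the second on WKY 3. Sparc, a collagen-binding matricellular protein, gave 2809, 3356 and 3317 (11.62 ± 0.14). Nos3, the endothelial nitric oxide synthase, was the dimmest of these markers at 79.7, 92.9 and 122 (6.59 ± 0.31), yet above the floor on all 3 arrays.

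**Figure D2:**
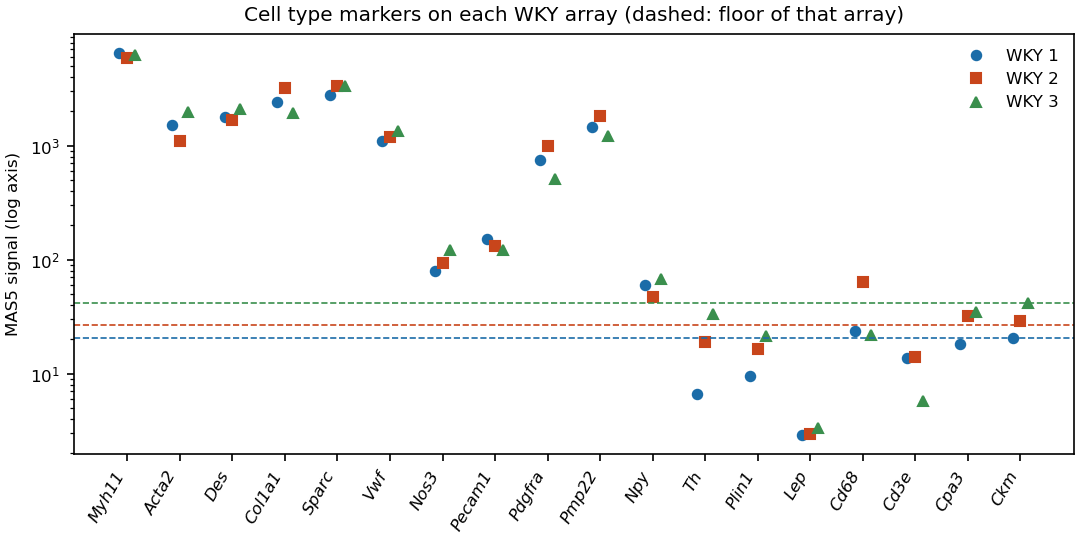
Cell type markers on each WKY array. The vertical axis is MAS5 signal on a log scale, each symbol is 1 array and each dashed line is the floor of the array of its colour. Smooth muscle and matrix markers lie more than a decade above the floors, Nos3 and Pecam1 closer to them, and Th, Plin1, Lep and Cd3e below the floor of their own array on all 3 arrays.

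The contractile list was almost complete. Of 31 genes represented, 30 were above the floor on all 3 arrays and 29 were in the brightest 10%, beside 63.9% and 12% of all genes. Pcp4, a calmodulin-binding peptide, was the exception, with 37.9, 20.99 and 32.03 and only WKY 1 above its floor. Filamin A (Flna), which crosslinks actin filaments, had the highest mean signal of all probesets at 5867, 6092 and 6989.6. The SM22 protein transgelin (Tagln) gave 6369, 5621 and 6291 and beta-tropomyosin (Tpm2) gave 6447, 5607 and 6163. The 3 arrays spanned at most 1.19-fold in each of these 3 genes.

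The regulators of myosin phosphorylation were also bright. The regulatory light chain Myl9 gave 6455, 5519 and 5627, and its kinase Mylk gave 4435, 2898 and 3321. Ppp1r14a (CPI-17), the phosphorylation-dependent inhibitor of myosin phosphatase, gave 3338, 2986 and 3606. Ppp1r12a, the subunit that directs this phosphatase to myosin, gave 1411, 689 and 884, with WKY 1 highest, the widest range of the list at 2.05-fold. Its other probeset gave 796, 801 and 849, with no such range. Calponin (Cnn1), which binds actin and slows the myosin cycle, gave 1806, 1368 and 1951, and caldesmon (Cald1) gave 2632, 1912 and 2392. Gamma-smooth muscle actin (Actg2) gave 2699, 2038 and 2251. The transcription factors Srf and Mef2c, which drive smooth muscle genes, gave 714, 762 and 829.6 (Srf) and 812, 797 and 679.5 (Mef2c), each within a narrow band. Of the 31 contractile genes 22 were highest on WKY 1, against 30.4% of the 7264 genes with a mean above the mean floor, and 1 was highest on WKY 2. The median member lay 0.12 log2 units below its own 3-array mean on WKY 2 and 0.09 above it on WKY 1.

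The fibrillar collagens and their partners formed the second large group. Of 53 interstitial matrix genes 47 were above the floor on all 3 arrays and 31 were in the brightest 10%, beside 63.9% and 12% of all genes. Mgp, matrix Gla protein, an inhibitor of vascular calcification, had the highest signal of the list at 5985, 5139 and 6112. The type I and type III collagen chains Col1a2 and Col3a1 gave 5094, 5025 and 4301 (Col1a2) and 4174, 4367 and 3985 (Col3a1). Collagen V and VI chains followed, with Col5a1 at 1156, 1909 and 1404 and Col6a3 at 2183, 1767 and 2059. The small leucine-rich proteoglycans, which bind and space collagen fibrils, were bright as a family. Among them Bgn gave 2884, 2693 and 3169.9, Dcn 2493, 2353 and 2894, Fmod 2289.6, 2037 and 2064 and Lum 779, 732 and 699.5.

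The elastic fibre genes were further down the ranking. Elastin (Eln) gave 567, 426 and 327, highest on WKY 1 and lowest on WKY 3, and fibrillin-1 (Fbn1), the scaffold on which elastin is laid down, gave 489, 599 and 358. The crosslinking enzymes Lox and Loxl1 gave 863, 731 and 881 (Lox) and 676, 589 and 576 (Loxl1). The inhibitors Timp2 and Timp3 gave 2026, 2419 and 2409.7 (Timp2) and 1742, 1994 and 1745 (Timp3), and the gelatinase Mmp2, which they inhibit, gave 784, 1213 and 789. Mmp9, the other gelatinase, was below the floor on all 3 arrays at 8.79, 13.6 and 7.45. Besides Mmp9, the matrix genes not above the floor throughout were Spp1, Acan, Comp, Col5a3 and Postn. Osteopontin (Spp1) gave 33.2, 38.2 and 35.7 and periostin (Postn) gave 23.5, 30.004 and 4.35. Both are matrix proteins known from injured or remodelling vessels, and aggrecan (Acan) and Comp are best known from cartilage.

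All 16 basement membrane genes were above the floor and 11 were in the brightest 10%, beside 63.9% and 12% of all genes. The laminin beta-2 chain Lamb2 gave 3839.9, 4013 and 4061, and Lamc1, the gamma-1 chain shared by most laminins, gave 1339, 1249 and 1294. The type IV collagen chains Col4a1 and Col4a2, which assemble with each other, gave 2058, 2174 and 2326 (Col4a1) and 1056, 1095 and 1009 (Col4a2). Nid1, which links laminin to collagen IV, gave 608, 604 and 608 and was among the 5 bright probesets with the narrowest range. Lama2, the laminin alpha chain of muscle, varied more than the rest of the list at 768, 959 and 466. The median member of the list lay between -0.02 and 0.00 log2 units from its own mean on each array.

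Receptors and signalling genes were a mixed group. Of 51 genes on the array 27 were above the floor on all 3 arrays, that is 52.9% beside 63.9% of all genes. In the brightest 10% were 9, that is 17.6% beside 12% of all genes. These 9 were signalling and partner proteins, with no surface receptor for a hormone or transmitter among them. Gucy1a1, a subunit of soluble guanylate cyclase, the nitric oxide receptor of smooth muscle, gave 2314, 2968 and 2814, and its partner Gucy1b1 gave 446, 338 and 368. The GTPase-activating proteins Rgs4, Rgs2 and Rgs5, which shorten signals of Gq and Gi coupled receptors, gave 2319, 1874 and 1697 (Rgs4), 940.2, 914 and 980.3 (Rgs2) and 711, 509 and 782 (Rgs5). Rgs2 varied little and Rgs5 was lowest on WKY 2. Gnas, the stimulatory G protein alpha subunit, gave 1786, 1526 and 1827, while Gnaq, the alpha subunit that couples constrictor receptors to phospholipase C, gave 2.63, 4.01 and 11.1, below the floor on every array.

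Among receptors for constrictors, P2rx1, the ATP-gated channel at sympathetic junctions, gave 421, 345 and 427, and the vasopressin receptor Avpr1a gave 406, 253 and 359. The alpha-1 adrenoceptors differed in signal. Adra1b was at 130.2, 125 and 142, Adra1d at 38.6, 56.004 and 66.5 and Adra1a at 7.91, 2.86 and 2.35, so that Adra1b and Adra1d were above the floor and Adra1a was not. The angiotensin receptor Agtr1a gave 69.5, 121 and 50.1, highest on WKY 2, and Agtr1b gave 58.6, 39.9 and 47.4. Agtr2 was below the floor at 6.79, 14.04 and 9.32. Ramp1, the partner protein of the CGRP receptor, gave 823, 844 and 1098, whereas Calcrl, the receptor it pairs with, was below the floor at 17.2, 20.8 and 19.8. The endothelin receptor genes had no probeset with 1 symbol and were not analysed here.

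Calcium handling genes were led by the sarcoplasmic reticulum. Of 43 channel and calcium genes 28 were above the floor on all 3 arrays, a share of 65.1%, near the 63.9% of all genes. In the brightest 10% were 9, a share of 20.9% beside 12% of all genes. The calcium pump Atp2a2 (SERCA2) gave 3691, 3055 and 3715, and phospholamban (Pln), the small protein that restrains it, gave 2897, 2008 and 2760.0. The inositol trisphosphate receptor Itpr1, the main release channel of the store, gave 1027, 1032 and 1159.5, and the calcium-binding store protein Casq2 gave 765, 671 and 888. Calmodulin 2 (Calm2), the calcium sensor of the myosin kinase, gave 2447, 1765 and 2679. Cacna1c, the pore of the L-type calcium channel, gave 224, 259 and 265, and its partner Cacnb2 gave 247, 253 and 247. The large-conductance calcium-activated potassium channel was seen by its pore Kcnma1 at 806, 472 and 647 and by its smooth muscle subunit Kcnmb1 at 92.7, 47.7 and 64.99. Both were highest on WKY 1 and lowest on WKY 2. The ATP-sensitive potassium channel subunits Abcc9 and Kcnj8 gave 757, 649 and 678 (Abcc9) and 69.1, 136 and 102 (Kcnj8), and the voltage-gated Kcna5 gave 319.7, 313 and 433. Kcnj2, the inward rectifier, and Trpc6 were below the floor on every array, at 9.08, 15.9 and 20.9 (Kcnj2) and 14.8, 22.6 and 18.4 (Trpc6).

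Endothelial genes were clearly represented, though less bright than those of muscle and matrix. Of 37 genes 30 were above the floor on all 3 arrays, that is 81.1% beside 63.9% of all genes. In the brightest 10% were 9, that is 24.3% beside 12% of all genes. The median percentile was 76.2 against 58.6 for all genes. Vwf, the clotting glycoprotein stored in endothelial granules, gave 1105, 1197 and 1349.6. The junction proteins Esam and Cldn5 gave 1272, 1018 and 1174 (Esam) and 1073, 1043 and 1295 (Cldn5). The vascular phosphatase Ptprb gave 923, 1211 and 1244 and the membrane protein Tm4sf1 gave 1064, 1087 and 1291. Vwf, Cldn5, Ptprb and Tm4sf1 were highest on WKY 3 and Esam on WKY 1.

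The connexins of arterial endothelium were bright too. Gja4 (connexin 37) gave 1013, 835 and 1045, and Gja5 (connexin 40) gave 440.4, 574 and 852, a range of 1.93-fold from WKY 1, the lowest, to WKY 3, the highest. Pecam1, the platelet-endothelial adhesion molecule, gave 151, 131 and 122, and Kdr, the main VEGF receptor, gave 78.5, 95.5 and 83.4. Edn1, the precursor of the constrictor endothelin-1, gave 46.9, 37.2 and 57.6, while Ece1, the enzyme that cleaves it to the active peptide, gave 792, 829.9 and 983. The adhesion molecules of activated endothelium divided. Icam1 and Vcam1 gave 245, 235 and 199 (Icam1) and 170.1, 181 and 177 (Vcam1), whereas Selp gave 17.95, 15.98 and 12.7, below the floor on all 3 arrays, and Sele 10.6, 28.2 and 3.20, above it on WKY 2 only. Sox17 and Notch4, known from arterial endothelium, were below the floor on all 3 arrays. Cdh5 and Tek had no probeset with 1 symbol. Of 6 lymphatic endothelial genes, 2 were above the floor throughout, that is 33.3% beside 63.9% of all genes. Prox1, their defining transcription factor, was below it at 16.2, 18.98 and 12.6.

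The adventitial fibroblast list had 23 of 29 genes above the floor on all 3 arrays, beside 63.9% of all genes. It had 13 in the brightest 10%, beside 12% of all genes. Vim, the intermediate filament of mesenchymal cells, was its brightest gene at 5749, 3724 and 4730.1, but smooth muscle and endothelium make it too. Fstl1 and S100a4 gave 2715, 2527 and 2859 (Fstl1) and 2596, 2284 and 2967 (S100a4). Pdgfra, the receptor that marks fibroblasts, gave 748, 984 and 513, Dpt (dermatopontin) 530.0, 810.4 and 522 and Pi16, a marker of adventitial fibroblasts, 131, 427 and 169.7. In each of these 3 WKY 2 was the highest array. The growth factor gene Igf1 was also highest there, at 149, 420.0 and 228. Of the 25 listed genes with a mean above the mean floor 18 were highest on WKY 2, where 35.2% of all genes were, and the median member lay 0.29 log2 units above its own mean there. A gene can pass this filter through WKY 2 itself, so genes were also taken by the other arrays alone. Of the 23 listed genes above the floor on both WKY 1 and WKY 3, 16 were highest on WKY 2, against 34.1% of all genes so taken, and in Pi16 alone it was more than 2-fold above both others. Genes of mural cells, that is of pericytes and smooth muscle, did not share this order as a list. Of 10 genes 3 were highest on WKY 1, 3 on WKY 2 and 4 on WKY 3. Those highest on WKY 2 were Anpep at 149, 287 and 151, Kcnj8 at 69.1, 136 and 102 and Foxs1 at 131, 137 and 84.2. All 10 were above the floor, among them Mcam at 1760.2, 1646 and 1491, Cspg4 (NG2) at 789.8, 850.3 and 866, Pdgfrb at 285, 268 and 198 and Notch3 at 46.8, 50.4 and 65.8, and the median shift was at most 0.03 on any array.

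Fat cell genes gave mixed signals, with Me1, Plin4 and Lpl bright and the adipocyte markers Plin1 and Lep below the floor. Of 36 genes 19 were above the floor on all 3 arrays, that is 52.8% beside 63.9% of all genes. In the brightest 10% were 3, that is 8.33% beside 12% of all genes. These 3 were the malic enzyme Me1 at 727, 701 and 737, the lipid droplet protein Plin4 at 849.6, 527 and 547 and lipoprotein lipase (Lpl) at 723, 601 and 549, all made by muscle as well. Plin1, the droplet coat of adipocytes, gave 9.58, 16.4 and 21.5, below the floor on every array. Leptin (Lep) was at 2.90, 2.95 and 3.36 and the brown fat protein Ucp1 at 13.8, 2.62 and 1.99, both below the floor. Other genes known from adipocytes were above the floor on all 3 arrays, among them the lipid droplet gene Cidea at 236, 268 and 361, the hormone-sensitive lipase Lipe at 61.7, 79.6 and 42.3 and Pparg, the transcription factor of fat cell differentiation, at 52.7, 54.7 and 57.5. The adipocyte genes Fabp4, Cfd (adipsin) and Car3 gave 33.6, 72.6 and 10.1 (Fabp4), 27.2, 111 and 36.99 (Cfd) and 18.5, 86.4 and 27.6 (Car3). In all 3 of these WKY 2 was more than 2-fold above both other arrays, and none of the 3 was above the floor on all 3 arrays. They were the only such genes of 24 listed with a mean above the mean floor, against 0.537% of all genes. A gene can pass this filter through WKY 2 itself. Of the 19 fat genes above the floor on both WKY 1 and WKY 3, 6 were highest on WKY 2, near the 34.1% of all genes so taken. None was more than 2-fold above both others there, against 0.299% of all genes so taken. Adipoq had no probeset with 1 symbol.

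Nerve genes were scarcely above background. Of 25 genes 2 were above the floor on all 3 arrays, that is 8% beside 63.9% of all genes. These were Gap43, a growth cone protein, at 67.4, 59.03 and 51.6, and Npy, the cotransmitter of sympathetic nerves, at 59.8, 47.3 and 67.4. Th and Dbh, the enzymes of noradrenaline synthesis, were below the floor on every array at 6.66, 18.9 and 33.2 (Th) and 14.96, 8.98 and 17.9 (Dbh). The cell bodies of sympathetic neurons lie in ganglia outside the vessel, and only their axons run in the wall. Schwann cell genes were somewhat clearer, with 5 of 17 above the floor on all 3 arrays, that is 29.4% beside 63.9% of all genes. Pmp22 gave 1458, 1805 and 1220.3 but is also made by fibroblasts and other cells. Cnp, a myelin enzyme, gave 158, 309 and 172, S100b 95.9, 136 and 109 and Mbp, myelin basic protein, 75.5, 140.2 and 30.98. Mbp was below the floor on WKY 3 and is not 1 of the 5. Prx and Pllp, the other members of the 5, gave 42.6, 68.5 and 44.8 (Prx) and 50.9, 62.9 and 80.2 (Pllp). WKY 2 was the highest array in each of these genes except Pllp, which was highest on WKY 3. Of 8 listed genes with a mean above the mean floor 6 were highest on WKY 2, against 35.2% of all genes. Of the 5 above the floor on both WKY 1 and WKY 3, 4 were, against 34.1% of all genes so taken. L1cam at 54.4, 50.03 and 26.7 and Sox10, whose mean was below the mean floor, at 39.4, 35.2 and 12.6 were highest on WKY 1.

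Skeletal muscle, which surrounds the vessel in the limb, gave few signals above the floor. Of 37 genes 10 were above it on all 3 arrays, 2 were in the brightest 10% and 21 were below it on every array. Ckm, muscle creatine kinase, gave 20.7, 29.2 and 41.4, close to the floor on every array, and Myh4, the fast myosin heavy chain, 2.41, 1.79 and 0.714. Myh1 was above the floor at 594, 621 and 641. It has several probesets, and 1 of these, at 184, 57.4 and 93.6, was among the 20 with the widest range. Acta1, skeletal alpha-actin, which smooth muscle can also express, gave 574, 420.1 and 436. Tcap, the titin cap protein, gave 183, 281 and 422. Of 13 listed genes with a mean above the mean floor 10 were highest on WKY 3, where 34.4% of all genes were, with a median of 0.22 log2 units above their own mean. In none of the 13 was WKY 3 more than 2-fold above both others, as it was in 0.33% of all genes. On the same array the 11 floor list genes that passed this filter had a median of 0.38 above their own mean, and all genes one of 0.00. A gene can pass this filter through WKY 3 itself. Of the 12 listed genes above the floor on both WKY 1 and WKY 2, 8 were highest on WKY 3. Of all 7233 genes so taken, 2403 were. The 12 had a median of 0.13 above their own mean on WKY 3, and 7 floor list genes so taken one of 0.34.

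Of all the lists, that of antigen-presenting cells shifted most between the pools. Of 35 macrophage and dendritic cell genes 16 were above the floor on all 3 arrays, that is 45.7% beside 63.9% of all genes, and none was in the brightest 10%. RT1-Da, the alpha chain of the rat class II molecule homologous to HLA-DR, gave 185, 812 and 197. The beta chain RT1-Db1 gave 73.5, 328 and 67.4, and RT1-Ba and RT1-Bb, the chains of the second class II molecule, gave 56.1, 114 and 55.9 (RT1-Ba) and 92.4, 363 and 61.7 (RT1-Bb). The invariant chain Cd74, which accompanies class II molecules to the endosome, gave 243, 690.0 and 194. In each of these 5 genes WKY 2 was more than 2-fold above both other arrays. RT1-DMa and RT1-DMb were highest on WKY 2 by less, at 20.7, 34.6 and 20.1 (RT1-DMa) and 70.7, 118 and 96.9 (RT1-DMb). Ciita, the class II transactivator, was below the floor on every array at 9.69, 25.2 and 26.8, highest on WKY 3. On the log2 scale RT1-Da gave 8.27 ± 1.21 and Cd74 8.32 ± 0.98 (SD, n = 3 arrays), a wide spread against the SD of 0.17 for Des.

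The same order held for genes of macrophages other than class II. Lysozyme (Lyz2) gave 230.4, 708 and 228, the endosomal protease cathepsin S (Ctss) gave 66.5, 247 and 107 and the complement chains C1qa and C1qc, made chiefly by tissue macrophages, gave 36.98, 181 and 59.4 (C1qa) and 35.03, 165 and 50.8 (C1qc). Fcer1g, the shared signalling chain of Fc receptors, gave 60.1, 140.1 and 65.2, the lysosomal glycoprotein Cd68 23.7, 64.1 and 21.7 and Clec10a, a lectin of macrophages and dendritic cells, 20.7, 67.1 and 23.6. Csf1r, the receptor that macrophages need to survive, gave 32.2, 54.2 and 40.8, highest on WKY 2 by a smaller margin. Of 22 listed genes with a mean above the mean floor 20 were highest on WKY 2, against 35.2% of all genes. In 12 of them WKY 2 was more than 2-fold above both others, against 0.537% of all genes. Some genes, such as Cd68 and Clec10a, pass this filter through WKY 2 itself. Of the 16 listed genes above the floor on both WKY 1 and WKY 3, 15 were highest on WKY 2, against 34.1% of all genes so taken. In 10 of them WKY 2 was more than 2-fold above both others, against 0.299% of all genes so taken. Of the 22, those not highest on WKY 2 were Fcgr2b at 61.7, 54.2 and 47.01 and Aif1 at 12.4, 48.8 and 56.4. Tyrobp, whose mean was below the mean floor, gave 17.4, 18.9 and 27.7. The summed signal of the list was 2174, 5451 and 2216, and the median member lay 0.74 log2 units above its own mean on WKY 2, 0.46 below it on WKY 1 and 0.32 below it on WKY 3. The 11 floor list genes that passed the same filter had medians of -0.29, -0.03 and 0.38 on the 3 arrays. Ptprc (CD45), the surface marker of leukocytes in general, was below the floor on every array at 7.99, 12.1 and 0.886, and so was Itgam at 2.90, 3.92 and 4.99. Cd163, Mrc1 and Adgre1 had no probeset with 1 symbol. WKY 2 also had the highest GAPDH 3'/5' ratio and the lowest Cre signal, and the part of these in the difference was not tested.

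**Figure D3:**
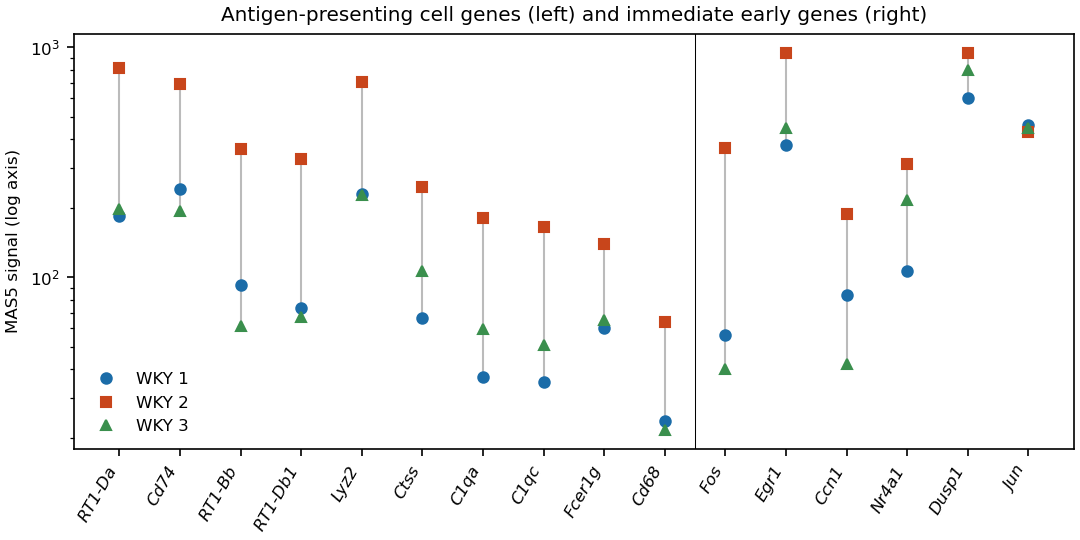
Signal of antigen-presenting cell genes (left of the line) and immediate early genes (right) on each WKY array, on a log axis. Each symbol is 1 array and grey lines join the arrays of a gene. WKY 2 is at the top for all genes drawn except Jun, whose 3 values lie together between 429 and 457. The genes drawn were picked from the lists after their values were seen, and members with another order, such as Fcgr2b, Aif1, Ccn2 and Hspa1a, are not drawn.

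Class II genes are transcribed together in antigen-presenting cells through a shared promoter module, of which the Y box, an inverted CCAAT sequence bound by the factor NF-Y, is a part. The promoter windows of the 4 class II chains described above are shown because the brightest probeset of each was highest on WKY 2. The dimmer probesets of RT1-Ba and RT1-Bb, below the floor on all 3 arrays, gave 10.2, 3.77 and 21.9 (RT1-Ba) and 5.22, 2.90 and 17.5 (RT1-Bb), highest on WKY 3. Each is the 150 bases before the annotated start in the RefSeq annotation of the rat build GRCr8, which is not the WKY strain, written 5' to 3' along the gene, with the Y box in capitals.
RT1-Da, chr20:4515265-4515414, plus strand: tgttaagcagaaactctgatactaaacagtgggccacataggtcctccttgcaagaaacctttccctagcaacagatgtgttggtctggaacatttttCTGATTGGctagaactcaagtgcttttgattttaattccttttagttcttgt
RT1-Db1, chr20:4560163-4560312, minus strand: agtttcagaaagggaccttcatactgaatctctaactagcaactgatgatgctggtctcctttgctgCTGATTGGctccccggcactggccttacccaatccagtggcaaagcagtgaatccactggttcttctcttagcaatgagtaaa
RT1-Ba, chr20:4576907-4577056, plus strand: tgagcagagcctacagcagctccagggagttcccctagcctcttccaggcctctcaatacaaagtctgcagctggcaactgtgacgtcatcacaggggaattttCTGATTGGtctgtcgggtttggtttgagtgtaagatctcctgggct
RT1-Bb, chr20:4604119-4604268, minus strand: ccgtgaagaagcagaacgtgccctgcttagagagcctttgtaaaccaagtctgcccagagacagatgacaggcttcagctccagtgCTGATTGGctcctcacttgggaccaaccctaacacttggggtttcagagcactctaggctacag
The letters searched were CTGATTGG, on both strands (CCAATCAG on the other), and were chosen after the signals had been seen. They begin 52, 83, 46 and 64 bases before the start in RT1-Da, RT1-Db1, RT1-Ba and RT1-Bb. Of 33469 promoter windows of this length, 2.45% hold these letters. The windows of RT1-DMa and Cd74 do not hold them, which says only that these letters are not in these windows. The class II chains are near-identical paralogs in part, the RT1-Db1 probeset is of the kind that can match several transcripts, and their signals may overlap.

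The lists of other leukocytes gave few signals above the floor, where 63.9% of all genes were above it on all 3 arrays. Of 21 lymphocyte genes only Klrk1, an activating receptor of natural killer cells, was above the floor on all 3 arrays, at 37.5, 57.7 and 56.2. Cd3e, a chain of the T cell receptor complex, gave 13.6, 13.9 and 5.80, below the floor on every array. Of 15 mast cell genes, Srgn and Gata2 were above the floor, at 279, 245 and 339.5 (Srgn) and 167, 256 and 253 (Gata2), and both are also made by endothelium. The mast cell proteases were lower, with Cpa3 at 18.2, 32.4 and 34.5 and Tpsb2 at 13.1, 45.1 and 12.5, each above the floor on 1 array only. Hbb, beta-globin of red cells, gave 176, 285 and 257 on a probeset of the kind that can match related globins, and 4 of 14 blood cell genes were above the floor on all 3 arrays. Of platelet genes, Pf4 gave 57.2, 139.5 and 84.8, while Ppbp at 11.95, 27.7 and 21.5 and Itga2b at 25.2, 33.6 and 17.5 were not above the floor throughout and Gp5 was below it on every array.

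Immediate early genes, which are switched on within minutes when a cell is stimulated, also differed between pools. Of 34 genes 23 were above the floor on all 3 arrays, a share near the 63.9% of all genes. In the brightest 10% were 6, that is 17.6% beside 12% of all genes. Fos, a subunit of the AP-1 factor, gave 56.1, 364 and 39.999, so that WKY 2 stood far above both other arrays, and the value on WKY 3 was below its floor. The zinc finger factor Egr1 gave 375, 945 and 445, the matricellular gene Ccn1 83.4, 188 and 42.1 and Myc 22.3, 49.9 and 23.6. In these 4 genes WKY 2 was more than 2-fold above both others, as it was in 0.537% of all genes, but Fos and Myc were not above the floor on both other arrays. Nr4a1 and the factor Klf4, at 107, 312 and 217 (Nr4a1) and 223, 592 and 541 (Klf4), were also highest on WKY 2, but by less. The phosphatase Dusp1 gave 600.0, 949 and 796. Jun, the partner of Fos, did not follow it, at 457, 429 and 447, and Ccn2, the brightest gene of the list, was likewise flat at 1088, 997 and 969. Hspa1a, the inducible heat shock protein, gave 876, 738 and 890.1, lowest on WKY 2. Of 28 genes with a mean above the mean floor 18 were highest on WKY 2, against 35.2% of all genes, and the median member lay 0.31 log2 units above its mean there and 0.19 below it on WKY 1. Of the 23 above the floor on both WKY 1 and WKY 3, 14 were highest on WKY 2, against 34.1% of all genes so taken, and in Ccn1 and Egr1 it was more than 2-fold above both others, against 0.299%.

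**Figure D4:**
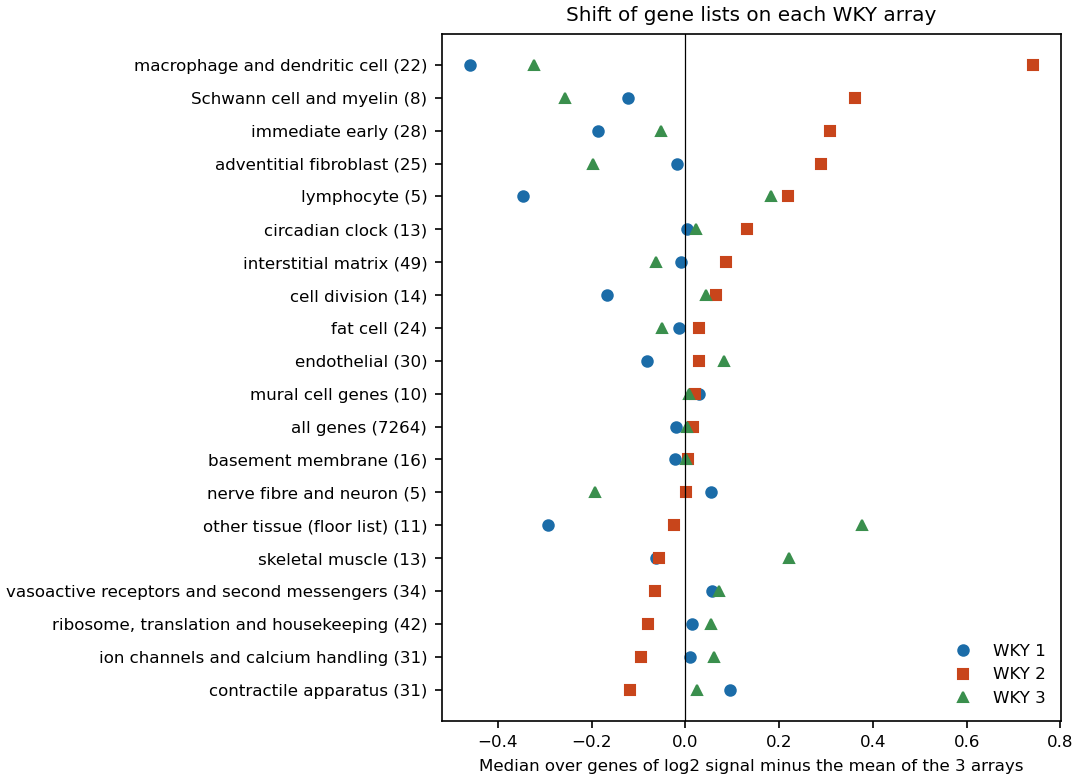
Shift of gene lists on each WKY array. For each list the horizontal axis gives the median over genes of log2 signal minus the gene's mean over the 3 arrays, with the number of genes whose mean is above the mean floor in parentheses. On WKY 2 the macrophage and dendritic cell list reaches 0.74 and the contractile list -0.12, while all genes together lie within 0.02 of 0 on each array.

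The spread of the 3 arrays depended on signal. Pearson's r of log2 signal across all probesets was 0.943 for WKY 1 and WKY 2, 0.934 for WKY 1 and WKY 3 and 0.940 for WKY 2 and WKY 3. These correlations run over probesets of the same arrays, which are not independent replicates. The median SD was 0.86 in the dimmest 10% of probesets and 0.16 in the brightest 10%. Above the floor, the median difference between arrays of a pair was 1.17-fold to 1.18-fold. The range of the 3 arrays exceeded 2-fold in 455 of the 8734 probesets above the floor, 5.21% of them. The array farthest from the middle value was WKY 1 with a low signal in 153 of these and with a high signal in 58. It was WKY 2 with a high signal in 81 and WKY 3 with a high signal in 85, and with a low signal in 37 and 41. The floor was lowest on WKY 1, at 20.6, and highest on WKY 3, at 41.7. A low signal therefore passed the filter more easily on WKY 1, and these counts depend on the floors.

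**Figure D5:**
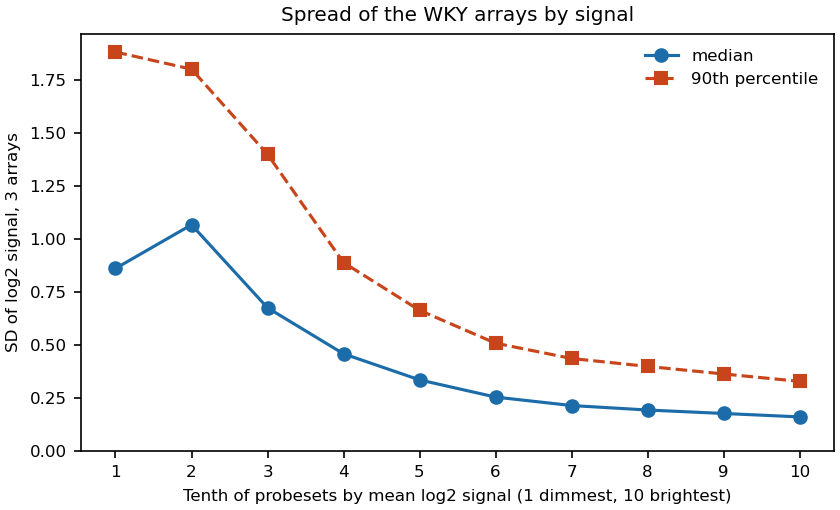
Spread of the WKY arrays by signal. Probesets are divided into 10 equal classes by mean log2 signal, from dimmest to brightest (horizontal axis), and the vertical axis gives the median and the 90th percentile of the SD of log2 signal over the 3 arrays. The median SD falls from 1.07 in the second class to 0.16 in the brightest.

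The probesets with the widest range above the floor were led by immune genes. Of the 20 with 1 symbol, RT1-Bb, C1qa, RT1-Db1, C1qc, RT1-Da, Ctss and Cd74 belong to the macrophage and dendritic cell list and were highest on WKY 2. Apoe, the apolipoprotein made by macrophages among other cells, gave 732, 1332 and 342 and was highest on the same array, as were Pi16, Ccn1 and Rtn1. Others had other orders. SIRT2 and Fgfrl1 were lowest on WKY 1, at 31.2, 38.4 and 135 (SIRT2) and 28.03, 90.5 and 112 (Fgfrl1), and Plxna2 and Adar shared that order. Zbtb38, Ube2d2 and Kansl1 were highest on WKY 1, with Zbtb38 at 235, 66.9 and 102. A probeset of Ogn, a leucine-rich proteoglycan, gave 743, 157 and 263, while the brightest probeset of that gene gave 2706, 1484 and 1823, the same order with a smaller range. At the other end, Rps28 gave 3237, 3213 and 3221, and Nr1d2, Cpxm2 and Mrpl4 kept within a similarly narrow range.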

How the data were processed

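Total RNA of each pool was amplified in 2 cycles, labelled with biotin and hybridised by the authors to Affymetrix RAE230A arrays. The intensity values deposited by the authors are MAS5 signals on a linear scale, scaled to a global mean target of 150, with no detection calls and with the version of MAS5 not given in the sources used here. The mean signal after trimming 2% at each end was 150.0 on each array. Oligo(dT)-primed amplification favours the 3' end of transcripts, so probesets far from it are dimmed. The other files, instrument records deposited per array, hold text entries and no scores, and only the count of scan days was taken from them. In 1 of the 3 records the wash protocol is blank.

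Values were read with Python 3.11.15, numpy 2.4.6 and pandas 2.3.3, transformed to log2 without a pseudocount, and plotted with matplotlib 3.10.9. Probesets were named from the platform annotation: 12783 had 1 symbol, 312 several and 2771 none, and updating through the RefSeq table, which held 12754 of the gene identifiers, changed 0 symbols. The brightest probeset stood for a gene, the floor was the 90th percentile of the floor list (99 probesets of 80 genes), and list shifts used genes with a mean log2 signal above the mean floor. There were 21 gene lists. The members, lists and cell type markers were chosen with earlier results of these data known. Named were the 25 genes of highest mean log2 signal, the cell type markers, the first 3 genes and up to 4 brightest of each list, the 20 probesets with 1 symbol and the widest range above the floor, and the 5 with the narrowest range in the brightest 10%. With 1 group there was no test. The median shift was tested on simulated arrays with a known shift added on WKY 2, and the other steps were not tested in this way. Arrays alone, 3 in number, limit the precision. Alternatives were other floors, median centring, quantile normalization, a pseudocount of 16, other probesets for a gene, each array left out, and genes taken by the other arrays alone. The last, and leaving out arrays for list shifts, were chosen after seeing the data.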

Additional observations from a re-analysis of the deposited data

How the results depend on the processing

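The 8734 probesets above the floor became 9984 with a floor at the 75th percentile of the floor list, 8181 at the 95th, 10363 with the highest Bacillus control signal as floor, and 9817 when at least 2 of 3 arrays had to exceed it, and 8810 to 9663 with 1 array left out. The mean pairwise correlation of 0.939 rose to 0.965 over probesets above the floor and to 0.976 with log2 of signal plus 16, was 0.939 under both other scalings, and ranged from 0.934 (without WKY 2) to 0.943 with 1 array left out. The listed genes above the floor, 354 in all, numbered 295 when the dimmest probeset stood for a gene and 408 with the lower floor, and 357 to 403 with 1 array left out. The macrophage and dendritic cell shift on WKY 2, 0.74, was 0.63 to 0.77 with another scaling, the mean of the probesets of a gene, the pseudocount or no filter, 0.91 over genes above the floor on both other arrays and 0.51 to 0.63 with 1 of the other arrays left out. Of single list values, 18 of 189 counts above the floor, 44 of 126 median percentiles and 47 of 441 shifts moved. A count moved if it changed by over 1.5 times, and the others if they changed by more than their spread. Changes of sign were not counted, and with 1 array left out the shifts on the remaining arrays are opposite by construction. No paired analysis was possible because only the WKY group was used and no groups were compared. Signals near the floor have wide spread, and a probeset below it may still have its transcript.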

Other observations

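Genes of cell division gave mixed signals. Of 31 genes 12 were above the floor on all 3 arrays, that is 38.7% beside 63.9% of all genes, and 15 were below it on every array. Cyclin D1 (Ccnd1), which drives cells out of G1, gave signals of 991, 865 and 703 on WKY 1, WKY 2 and WKY 3, and the inhibitor Cdkn1b gave 983, 661 and 744. Pcna, the sliding clamp of DNA polymerase, gave 715, 522 and 613. Ccnd1, Cdkn1b and Pcna are also known in cells that do not divide. Mki67, a nuclear protein of cycling cells, gave 5.75, 3.74 and 3.59 and Top2a, the topoisomerase of dividing cells, 19.5, 23.4 and 13.5, all below the floor. The cyclin Ccne1 was below it as well, at 11.1, 6.66 and 15.4, while the mitotic kinase Plk1 was above it on all 3 arrays, at 27.96, 44.4 and 79.5.

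Of 16 circadian clock genes 11 were above the floor on all 3 arrays, a share of 68.75%, near the 63.9% of all genes. The repressor Nr1d1 gave 279, 393 and 421, the output gene Dbp gave 136, 298 and 352 and the repressor Bhlhe41 gave 132, 288 and 281, so that all 3 were lowest on WKY 1. Per2 gave 113, 149.9 and 219 and was lowest there too. Bmal1, the activator that Nr1d1 represses, gave 62.3, 45.6 and 50.1 and was highest on WKY 1, as was Clock at 350.3, 245 and 237. Other members did not share this order. Per1 at 113, 142 and 86.4 and Cry2 at 165, 187 and 137 were lowest on WKY 3, and Nr1d2, the close relative of Nr1d1, gave 576, 575 and 573. Of 13 clock genes with a mean above the mean floor, 4 were highest on WKY 1, 4 on WKY 2 and 5 on WKY 3, and the median shift on WKY 1 was 0.00 log2 units.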
